A study of Homo sapiens with 9 samples.

Results

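Rh30 is a human cell line of fusion-positive rhabdomyosarcoma (FP-RMS), a childhood soft tissue sarcoma whose cells resemble muscle precursors and carry PAX3-FOXO1, a fusion of 2 transcription factor genes. Xenografts of Rh30 cells were compared here with Rh30 cells grown as spheres, to describe which genes and pathways tell the tumor from the sphere model. The comparison used 6 of the 9 arrays of the series, chosen by their labelled growth method: 3 arrays of xenografts and 3 of spheres. The other 3 arrays, of adherent Rh30 cells, entered the fit and are given beside the results. All 54613 non-control probe sets of the arrays were tested, and they represented 19775 genes.

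All 3 groups share the cell line and its PAX3-FOXO1 fusion. Spheres were grown in Neurobasal media with B27 supplement (1X), bFGF (80 ng/ml), insulin (50 µg/ml) and EGF (40 ng/ml). By the methods, RNA of spheres was taken after a short time in culture, and adherent cells grew in RPMI medium with fetal bovine serum. Adherent and sphere cultures thus also differ in medium and serum. For the xenografts, the labels describe Rh30 cells from adherent cultures or spheres, placed in Matrigel under the skin of the flank of SCID/beige mice. The methods of the study give that route to its limiting dilution assay, and for the array tumors describe adherent-grown cells injected in PBS into the left gastrocnemius, a calf muscle, of the same strain, so labels and methods differ on these 3 tumors. SCID/beige mice lack T and B lymphocytes and have defective natural killer cells, and keep macrophages, vessels and fibroblasts. A single cell line was used, and its adherent and sphere cultures hold no host tissue. The methods call the 3 arrays of each group biological replicates, and neither they nor the labels name the cultures or animals behind them.

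Spheres and xenografts are both three-dimensional, and they differ in what surrounds the cells. Sphere medium is free of serum and supplies growth factors and insulin, and sphere cells float without a matrix. A xenograft is fed by host blood, is embedded in matrix and contains host cells. Cells short of amino acids or with misfolded protein in the endoplasmic reticulum (ER) stop most translation and make ATF4, a transcription factor that turns on amino acid synthesis, transport and stress genes. Cells that enter S phase turn on the genes of DNA licensing and replication through the E2F transcription factors.

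Values are log2 RMA values, on which a difference of 1 is a 2-fold change, and a gene is represented by its brightest probe set. A gene was called when its adjusted p from limma was under 0.05. In such bulk samples, a change in the share of cells of a type and a change in RNA per cell cannot be told apart. Levels of different genes cannot be compared, since probe sets differ in brightness. Arrays of 1 group correlated across probe sets at r = 0.9947 to 0.9969 in spheres and 0.9903 to 0.9932 in xenografts, against 0.9653 to 0.9763 between the groups. Markers of FP-RMS were present in both groups: the log2 value of DES, the muscle intermediate filament desmin, was 8.61 ± 0.10 (SD, n = 3) in spheres and 8.49 ± 0.12 in xenografts, and that of MYOD1, the myogenic master regulator, was 11.07 ± 0.01 and 10.87 ± 0.19. Of the RNA quality and array control measures, the 3′ probe set of the ACTB control exceeded the 5′ one by 3.2 ± 0.09 (SD, n = 3) in spheres and 2.48 ± 0.23 in xenografts (exact permutation p = 0.1, two-sided, the smallest that 3 against 3 allows). The poly-A control RNAs read 7.14 ± 0.18 and 8.01 ± 0.41 (exact permutation p = 0.1). The hybridization controls read 10.86 ± 0.12 in spheres and 11.08 ± 0.03 in xenografts (exact permutation p = 0.1). The same 3′ to 5′ measure of the GAPDH control was 0.62 ± 0.05 in spheres and 0.53 ± 0.11 in xenografts (exact permutation p = 0.4). The part of these differences in the results below was not tested.

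Of 19775 genes, 8705 were called (44.0%), 5077 higher in xenografts (25.7%) and 3628 lower (18.3%). The larger changes ran the other way. At least 2-fold higher were 534 genes (2.7%), and at least 2-fold lower were 964 (4.87%), so 64.4% of these larger calls were lower in xenografts. The median difference over all genes was 0.13, and the quartiles lay at -0.17 and 0.33. Few dim genes fell. When the genes were split into 5 equal groups by brightness, 663 and 1122 genes of the 2 dimmest groups were called higher and 115 and 276 lower, against 1106 higher and 1135 lower in the brightest group. Small differences of dim genes are to be read against this background. A gene's probe sets do not always agree, and 644 of the 10953 genes with any called probe set had calls in both directions.

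**Figure D1:**
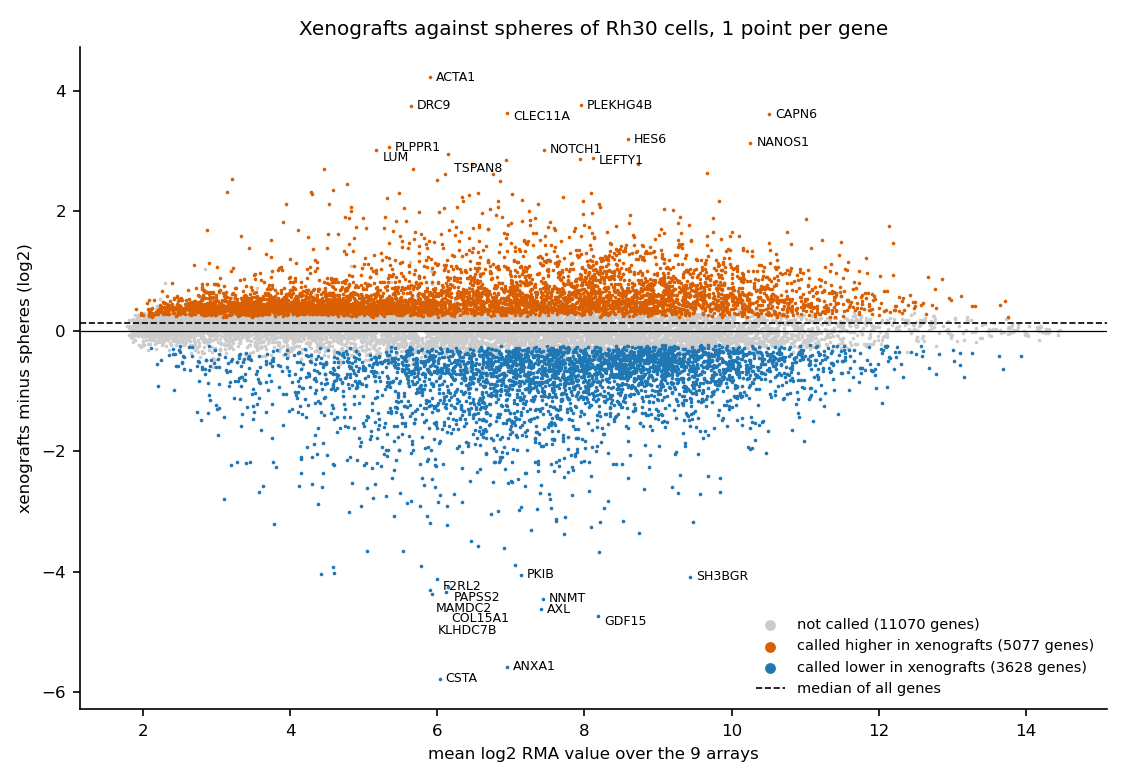
Difference between xenografts and spheres (log2, y axis) against the mean log2 value over the 9 arrays (x axis), with 1 point for each of 19775 genes, coloured by call. The 12 largest rises and the 12 largest falls are named, and the falls reach further from 0 than the rises, to -5.78 for CSTA against 4.22 for ACTA1.

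ACTA1, the actin of skeletal muscle sarcomeres, had the largest rise. Its log2 value was 3.76, 4.20 and 4.51 on the sphere arrays and 8.40, 8.48 and 8.26 on the xenograft arrays. The groups lay far apart, and the rise was 18.7-fold (log2 difference 4.22 ± 0.16 (SE, n = 3 per group), adjusted p = 1.4e-08). PLEKHG4B read 5.53, 5.72 and 5.59 on the sphere arrays and 9.44, 9.32 and 9.35 on the xenograft arrays, a 13.5-fold difference (3.75 ± 0.11), and its adherent level of 8.89 ± 0.17 was near that of the xenografts. Adherent ACTA1, at 5.16 ± 0.03, was near that of spheres instead. CLEC11A, a secreted growth factor for blood and bone progenitors, was 5.60, 5.89 and 5.66 on the sphere arrays and 8.82, 9.56 and 9.65 on the xenograft arrays (12.4-fold), and CAPN6, a calpain family member without protease activity, was 8.30, 8.62 and 8.43 on the sphere arrays and 12.61, 11.70 and 11.85 on the xenograft arrays (12.2-fold). These and the other genes with the largest differences were chosen among genes whose groups do not overlap, so the gap is part of the choice.

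DRC9, a component of the dynein regulatory complex of cilia, was 4.13, 3.75 and 4.36 on the sphere arrays and 9.44, 7.36 and 6.68 on the xenograft arrays. Replicate 1 stood well above the other xenografts, and without it the log2 difference went from 3.74 to 2.94. LUM, the matrix proteoglycan lumican and a fibroblast gene, behaved in the same way with 3.50, 4.51 and 4.31 on the sphere arrays and 8.31, 6.47 and 6.56 on the xenograft arrays, and its difference went from 3.01 to 2.41 without that tumor. At probe sets without the _x_at and _s_at suffixes, which mark probes that several transcripts can share, DRC9 and LUM differed by 0.14 and 0.14 and were not called. HES6, a relative of the HES repressors that promotes muscle and neuronal differentiation, was 6.73, 6.96 and 6.80 on the sphere arrays and 9.99, 9.95 and 10.14 on the xenograft arrays (9.15-fold), with both groups tight. NOTCH1, a Notch receptor, was 5.57, 5.74 and 5.58 on the sphere arrays and 8.86, 8.57 and 8.51 on the xenograft arrays (8.08-fold).

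The other large rises were in NANOS1, an RNA-binding protein of germ cells (3.13 ± 0.11), PLPPR1, a membrane protein linked to neurite growth (3.06 ± 0.25), TSPAN8, a tetraspanin (2.94 ± 0.30), and LEFTY1, a secreted inhibitor of Nodal signaling (2.87 ± 0.14). In both NANOS1 and LEFTY1 the adherent level was nearer to the xenografts than to the spheres: NANOS1 was at 10.89 ± 0.06 in adherent cells and 11.51 ± 0.12 in xenografts, and LEFTY1 at 9.0 ± 0.13 and 9.11 ± 0.26.

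CSTA, which encodes cystatin A, an inhibitor of cysteine proteases, had the largest fall of all genes. It read 10.18, 9.73 and 9.90 on the sphere arrays and 3.76, 4.43 and 4.27 on the xenograft arrays, so every sphere array was far above every xenograft array, and it was 55.1-fold lower in xenografts (log2 difference -5.78 ± 0.17 (SE, n = 3 per group), adjusted p = 4.20e-09). ANXA1, annexin A1, a membrane-binding protein with anti-inflammatory roles, was 9.49, 9.48 and 9.47 on the sphere arrays and 4.08, 4.27 and 3.36 on the xenograft arrays, which is 47.8-fold lower. GDF15, a secreted stress hormone of the TGF-beta family, was 11.05, 11.08 and 11.11 on the sphere arrays and 5.97, 6.78 and 6.29 on the xenograft arrays, or 26.6-fold lower. Adherent cells held CSTA at 4.01 ± 0.17, ANXA1 at 7.45 ± 0.12 and GDF15 at 7.14 ± 0.35, so the adherent level of CSTA was near that of xenografts, and those of ANXA1 and GDF15 lay between the levels of xenografts and spheres.

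AXL, a receptor tyrosine kinase of the TAM family, was 8.74, 8.87 and 8.82 on the sphere arrays and 4.09, 4.19 and 4.29 on the xenograft arrays (24.6-fold lower). NNMT, which methylates nicotinamide, was 8.88, 8.74 and 8.82 on the sphere arrays and 4.28, 4.57 and 4.25 on the xenograft arrays (21.8-fold lower). COL15A1, a basement membrane collagen, was 7.56, 8.0 and 8.10 on the sphere arrays and 2.74, 3.88 and 4.05 on the xenograft arrays (20.1-fold lower). In each of these 3 genes the gap between the groups was wider than the range within either. Adherent cells held AXL at 9.21 ± 0.01, NNMT at 9.14 ± 0.03 and COL15A1 at 6.89 ± 0.17, each nearer to spheres than to xenografts. Of the probe sets, 1 of 2 for AXL and 2 of 3 for NNMT were called lower, and 0 were called higher.

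The remaining large falls were in KLHDC7B (-4.37 ± 0.12), MAMDC2 (-4.30 ± 0.11), PAPSS2, which makes the sulfate donor for proteoglycans (-4.25 ± 0.18), F2RL2, a protease-activated receptor (-4.12 ± 0.35), SH3BGR (-4.08 ± 0.14) and PKIB, an inhibitor of protein kinase A (-4.05 ± 0.24).

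**Figure D2:**
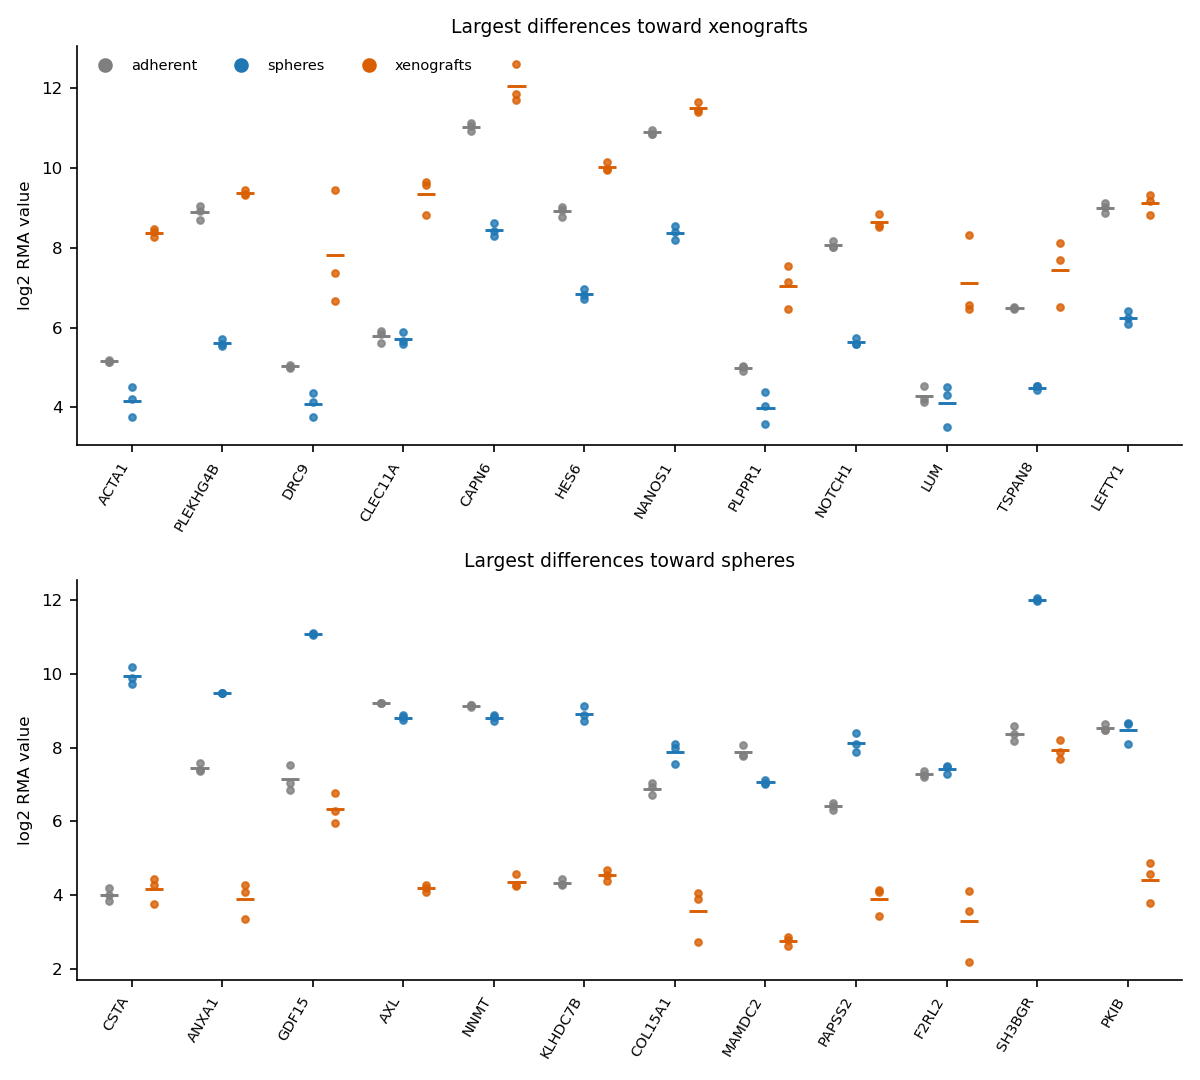
Log2 RMA values (y axis) of the 12 genes with the largest rises (top) and the 12 with the largest falls (bottom) on each of the 9 arrays, with 1 point per array and a short line at each group's mean. The genes were chosen among those whose sphere and xenograft arrays do not overlap, and xenograft 1 lies above the other two in DRC9 and LUM.

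Gene lists were described by how many of their measured members were called in each direction and by the median difference of all measured members, beside 25.7% higher, 18.3% lower and a median of 0.13 over all genes. Counts of 2 or fewer members shifted by up to 2 when 1 array was left out. The lists with the highest medians were DNA replication and cholesterol synthesis, and those with the lowest were ATF4 stress response, amino acid synthesis and transport, and ER chaperones.

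**Figure D3:**
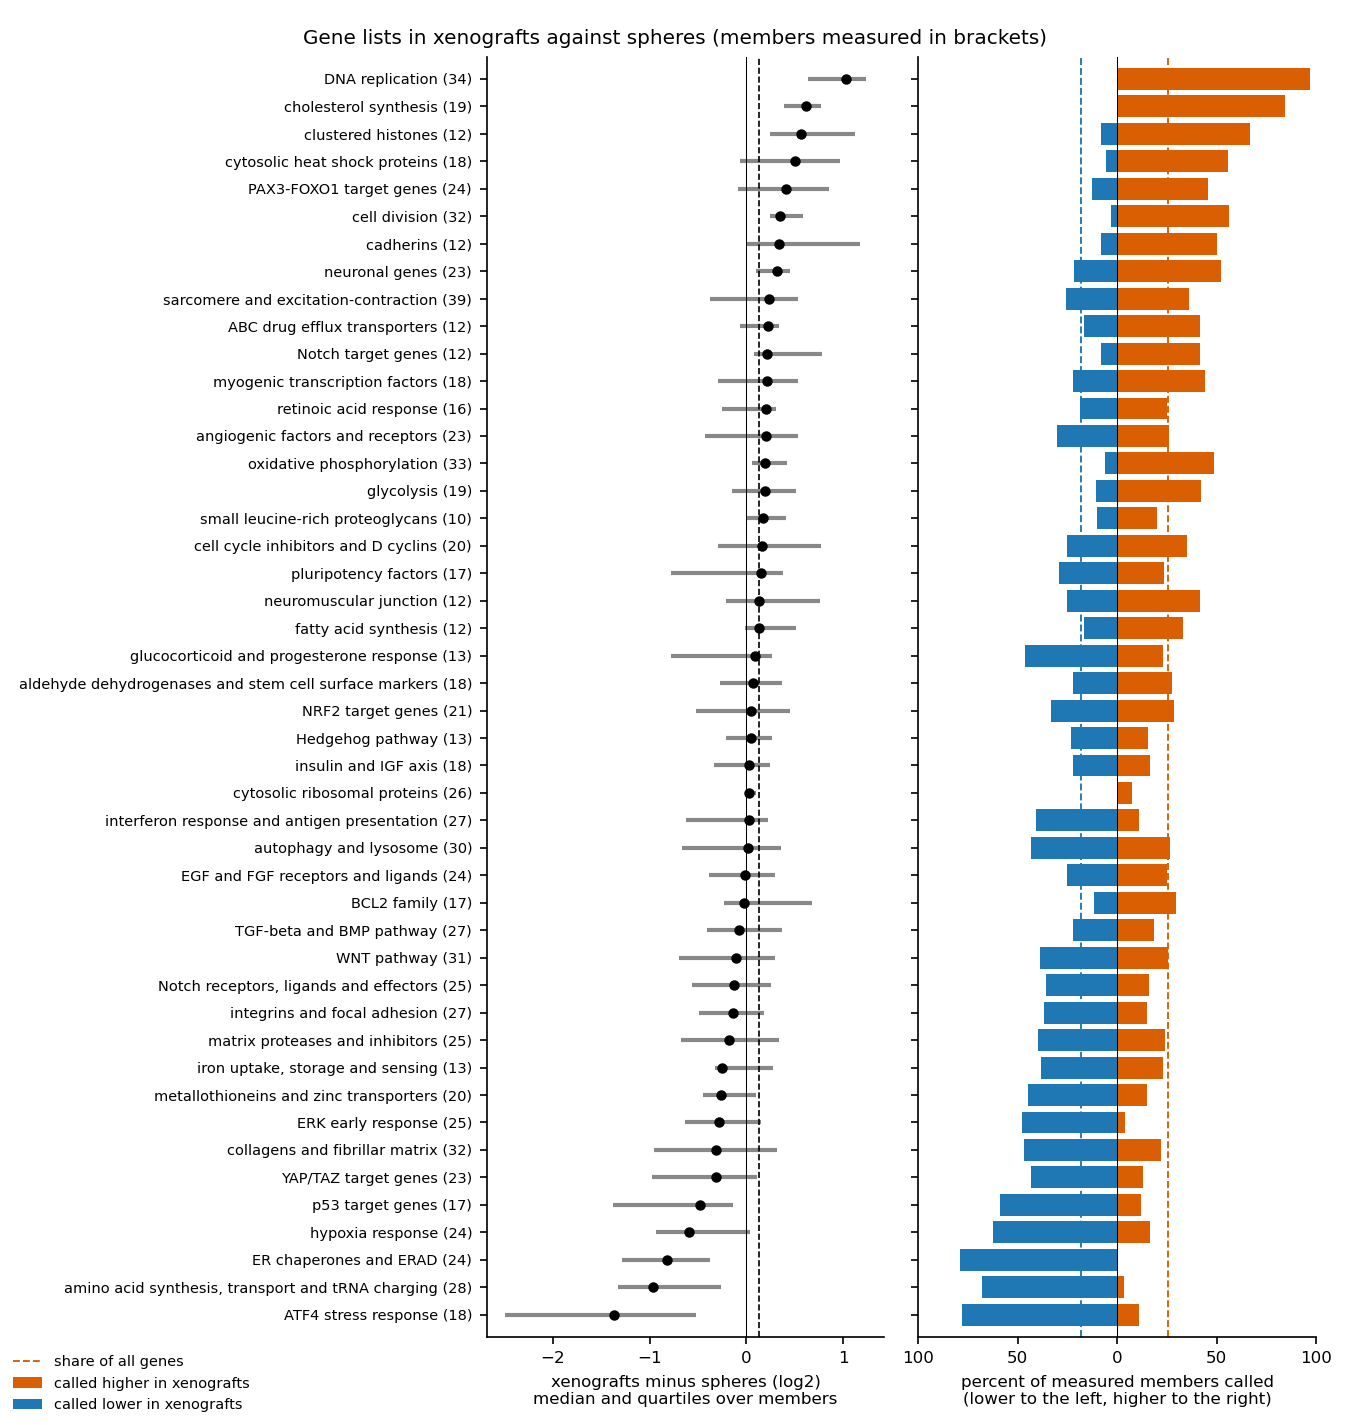
Left, the median (point) and quartiles (bar) of the difference between xenografts and spheres (log2) over the measured members of each gene list, with the median of all genes dashed. Right, the percent of members called higher (orange) and lower (blue), with the shares of all genes dashed: DNA replication stands at 97.1% higher, and the ATF4 stress response at 77.8% lower.

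Genes of DNA replication were higher in xenografts almost throughout. Of 34 measured members, 33 were called higher and 0 lower, with a median of 1.03 and 18 members at least 2-fold higher. RFC3, a clamp loader subunit, was the exception, at 0.16 (adjusted p = 0.186). Against adherent cells, the medians were -1.09 in spheres and -0.13 in xenografts.

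Licensing loads the MCM helicase onto origins before S phase. CDT1, a licensing factor, was 7.17, 7.24 and 7.22 on the sphere arrays and 8.95, 8.79 and 9.12 on the xenograft arrays (3.35-fold). CDC6, its partner in loading the helicase, was 6.77, 6.73 and 6.91 on the sphere arrays and 8.78, 8.35 and 8.56 on the xenograft arrays (3.38-fold). All 3 tumors were above all 3 spheres in both genes. The 6 helicase subunits MCM2 (1.06), MCM3 (1.19), MCM4 (1.19), MCM5 (1.2), MCM6 (0.99) and MCM7 (1.04) each rose by a similar amount, with standard errors of 0.09 to 0.14. GINS2, a subunit of the complex that activates this helicase, had the largest rise of the list, 1.80 ± 0.11, but differed by 0.23 without a call at its brightest probe set without the _x_at and _s_at suffixes.

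At the fork, PCNA, the sliding clamp of the polymerases, rose by 1.49 ± 0.11. POLA2, a subunit of the polymerase that starts each strand, rose by 1.65 ± 0.10, FEN1, the flap endonuclease, by 1.33 ± 0.09, and LIG1, the ligase that joins Okazaki fragments, by 1.18 ± 0.11. Nucleotide supply moved with them: TYMS, thymidylate synthase, was 11.27, 11.23 and 11.26 on the sphere arrays and 12.73, 12.82 and 12.60 on the xenograft arrays (2.76-fold), again without overlap, and TK1, thymidine kinase, rose by 1.32 ± 0.15 and RRM2, a subunit of ribonucleotide reductase, by 0.93 ± 0.11. The calls of PRIM1, GINS3 and ORC1, with differences of 0.47, 0.43 and 0.35, were each lost without spheres replicate 3 or xenografts replicate 2 or 3. ORC1 was also lost without any one of 4 other arrays, PRIM1 without spheres replicate 1 and GINS3 without spheres replicate 2.

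The E2F element TTTGGCGC, searched on both strands from 250 bases before to 50 bases after the start site, was found in 0.795% of genes with a RefSeq promoter (GRCh38.p14) and in 6 of the 30 members of the list that have one. The 6 are CDC6, MCM6, GINS1, POLA1, POLE and POLE2. All 6 were called higher, as were 33 of the 34 measured members of the list, so the call does not set these 6 apart. A match is a description of the letters and no evidence of binding. The promoters of the 3 with the largest differences are shown 5′ to 3′ on the gene's strand with the element, or its complement GCGCCAAA, in capitals, to show where it lies. In CDC6 it begins 7 bases after the start site, in POLA1 137 bases before it, and in MCM6 152 and 90 bases before it.
CDC6, chr17:40287629-40287928, plus strand: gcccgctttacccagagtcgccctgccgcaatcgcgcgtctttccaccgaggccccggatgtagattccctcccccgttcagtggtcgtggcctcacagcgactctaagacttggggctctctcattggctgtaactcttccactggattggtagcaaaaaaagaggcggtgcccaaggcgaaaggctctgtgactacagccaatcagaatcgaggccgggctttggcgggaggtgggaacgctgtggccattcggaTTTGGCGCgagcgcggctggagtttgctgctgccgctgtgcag
POLA1, chrX:24693668-24693967, plus strand: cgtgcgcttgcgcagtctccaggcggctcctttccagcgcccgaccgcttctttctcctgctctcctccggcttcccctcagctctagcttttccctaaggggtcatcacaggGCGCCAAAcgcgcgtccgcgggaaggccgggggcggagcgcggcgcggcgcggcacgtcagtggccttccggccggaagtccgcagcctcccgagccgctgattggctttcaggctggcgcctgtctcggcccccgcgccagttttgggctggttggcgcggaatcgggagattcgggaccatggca
MCM6, chr2:135876394-135876693, minus strand: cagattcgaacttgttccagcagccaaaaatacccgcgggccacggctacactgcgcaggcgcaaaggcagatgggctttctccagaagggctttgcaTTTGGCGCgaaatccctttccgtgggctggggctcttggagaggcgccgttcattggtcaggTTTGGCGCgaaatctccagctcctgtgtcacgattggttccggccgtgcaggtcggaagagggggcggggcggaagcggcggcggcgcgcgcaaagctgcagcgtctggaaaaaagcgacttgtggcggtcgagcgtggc

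Cell division genes, which act from mitotic entry to cytokinesis, moved less. Of 32 measured, 18 were called higher and 1 lower, with a median of 0.35. FOXM1, the transcription factor of the mitotic program, rose by 0.88 ± 0.10 and CCNB1, cyclin B1, by 0.79 ± 0.10. TPX2, a spindle assembly factor, rose by 0.73 ± 0.09, and KIF2C, a microtubule depolymerase, fell by 0.44. MKI67, the Ki-67 proliferation antigen, was 8.39, 8.43 and 8.27 on the sphere arrays and 8.79, 8.79 and 8.49 on the xenograft arrays, and its call (0.33 ± 0.11, adjusted p = 0.0407) was lost without adherent replicate 1, any of the sphere arrays, or xenografts replicate 1 or 2 (adjusted p up to 0.136). CDK1, the mitotic kinase, did not pass at 0.25 (adjusted p = 0.193).

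CDKN1A, the p21 inhibitor of cyclin-dependent kinases, was 10.48, 10.31 and 10.36 on the sphere arrays and 7.89, 7.75 and 7.46 on the xenograft arrays. Every xenograft was far below every sphere, and the gene was 6.42-fold lower (log2 difference -2.68 ± 0.11 (SE, n = 3 per group), adjusted p = 3.70e-08), against 9.73 ± 0.03 in adherent cells. In the list of cell cycle inhibitors, D cyclins and G1 regulators, 7 of 20 members were higher and 5 lower. The S phase cyclin CCNE2 was 8.07, 8.12 and 8.31 on the sphere arrays and 10.10, 9.49 and 9.08 on the xenograft arrays (2.62-fold higher), E2F1 and E2F2 rose by 1.18 ± 0.10 and 1.44 ± 0.10, and CCND3, cyclin D3, by 0.94 ± 0.11. CDK6, a G1 kinase, fell by 0.94 ± 0.11 on the log2 scale, whereas CDK4, its close relative, differed by 0.21 (adjusted p = 0.0655).

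Replication histones, which are made in S phase, were called higher for 8 of 12 members, with a median of 0.57. H2AC8 rose by 1.62 ± 0.25 and H2AX, whose protein marks DNA breaks when phosphorylated, by 1.38 ± 0.12. H2BC21, a histone gene that also makes polyadenylated transcripts outside S phase, ran the other way at -2.20 ± 0.29. Genes of 1 histone family are alike in sequence, so signal can be shared between their probe sets.

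Targets of p53, which respond to DNA damage and other stresses, were mostly lower: 10 of 17 fell and 2 rose, with a median of -0.48. Besides CDKN1A, the death receptor gene TNFRSF10B (-1.87 ± 0.10) fell, and so did GADD45A, a growth arrest gene (-1.37 ± 0.11). BAX, a pore-forming killer protein of the BCL2 family, was higher, with 6.82, 6.42 and 6.81 on the sphere arrays and 8.03, 8.68 and 8.34 on the xenograft arrays (3.17-fold). The list shares SESN2 and GADD45A with the stress and YAP lists described here.

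Genes induced by ATF4 were lower in xenografts. Of 18 measured members, 14 were called lower and 2 higher, and the median was -1.37, the lowest of all lists. Relative to adherent cells, the median was 1.98 in spheres and 0.23 in xenografts. ATF4 itself was 12.41, 12.33 and 12.34 on the sphere arrays and 11.27, 11.65 and 11.63 on the xenograft arrays, a difference of -0.85 ± 0.12 without overlap.

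ATF5, a related transcription factor of the stress response, was 10.32, 10.28 and 10.22 on the sphere arrays and 7.04, 7.52 and 7.45 on the xenograft arrays (7.65-fold lower). NUPR1, a stress-induced chromatin protein, was 7.29, 7.02 and 6.84 on the sphere arrays and 4.39, 4.07 and 4.39 on the xenograft arrays (6.82-fold lower). TRIB3, a pseudokinase that restrains ATF4, was 11.94, 11.64 and 11.81 on the sphere arrays and 8.81, 9.41 and 9.15 on the xenograft arrays (6.38-fold lower). The sphere arrays were above all xenograft arrays in each. PPP1R15A, which restores translation after stress, fell by 2.51 ± 0.09, DDIT3, the death-linked factor CHOP, decreased by 1.82 ± 0.17, and CEBPB, a C/EBP transcription factor, decreased by 2.44 ± 0.20.

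CHAC1, which degrades glutathione, stood against the list. It read 6.18, 6.0 and 6.27 on the sphere arrays and 6.16, 7.55 and 7.25 on the xenograft arrays: xenografts 2 and 3 were above the spheres and xenograft 1 was within their range. Its call as higher (0.84 ± 0.27, adjusted p = 0.0305) was lost without xenografts replicate 2 or 3 or any of the sphere arrays, with adjusted p up to 0.111. JDP2, a repressor of the AP-1 family, had the opposite dependence. Its difference of -0.90 ± 0.24 became -0.58 without xenografts replicate 1.

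The ATF4 and C/EBP composite element TGATGCAA was found in 1.08% of genes with a promoter and in 4 of 17 members of the list: CHAC1, called higher, CEBPG and JDP2, called lower, and FGF21, at 0.21 (adjusted p = 0.275). The promoters of the called members are shown because genes that hold the same letters were called in both directions, the higher one being CHAC1 alone, whose call was lost as given above. JDP2 has 3 promoters and CEBPG 2, and 1 that holds the element is shown for each. Here too a match is a description of the letters and no evidence of binding. The element or its complement TTGCATCA is in capitals, and begins 16 bases before the start site in JDP2, 209 in CHAC1 and 42 in CEBPG.
JDP2, chr14:75427772-75428071, plus strand: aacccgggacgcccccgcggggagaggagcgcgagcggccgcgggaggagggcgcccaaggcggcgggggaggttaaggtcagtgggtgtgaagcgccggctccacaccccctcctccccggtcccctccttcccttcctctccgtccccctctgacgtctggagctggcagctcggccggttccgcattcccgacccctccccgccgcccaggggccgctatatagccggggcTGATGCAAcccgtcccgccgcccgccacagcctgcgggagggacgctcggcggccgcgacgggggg
CHAC1, chr15:40953221-40953520, plus strand: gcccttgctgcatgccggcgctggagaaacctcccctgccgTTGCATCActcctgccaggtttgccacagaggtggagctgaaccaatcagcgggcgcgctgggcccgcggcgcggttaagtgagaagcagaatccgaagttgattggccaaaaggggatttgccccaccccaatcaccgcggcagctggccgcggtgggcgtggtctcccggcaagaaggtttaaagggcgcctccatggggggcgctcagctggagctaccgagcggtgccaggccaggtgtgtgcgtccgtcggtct
CEBPG, chr19:33373863-33374162, plus strand: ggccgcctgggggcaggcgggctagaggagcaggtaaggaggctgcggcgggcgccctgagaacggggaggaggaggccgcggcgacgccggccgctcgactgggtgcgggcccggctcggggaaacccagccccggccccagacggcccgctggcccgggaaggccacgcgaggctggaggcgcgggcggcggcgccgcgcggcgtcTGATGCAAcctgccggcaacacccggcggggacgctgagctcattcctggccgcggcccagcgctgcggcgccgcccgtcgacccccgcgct

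Amino acid genes followed the stress list. Of 28 genes of amino acid synthesis, transport and tRNA charging, 19 were lower and 1 higher, with a median of -0.96. ASNS, asparagine synthetase, was 10.89, 10.71 and 10.80 on the sphere arrays and 8.87, 9.89 and 9.46 on the xenograft arrays (2.63-fold lower), and its brightest probe set without the _x_at and _s_at suffixes differed by 0.23. SLC7A11, the cystine importer, was 9.33, 9.22 and 9.26 on the sphere arrays and 4.17, 7.77 and 6.39 on the xenograft arrays (-3.16 ± 0.63). Its xenografts spread over several log2 units with replicate 1 lowest, and the difference was -2.19 without that replicate and -3.99 without replicate 2, the highest. CBS and CTH, the transsulfuration enzymes that make cysteine, changed by -1.76 ± 0.13 and -1.64 ± 0.21. The tRNA synthetase genes WARS1 (-1.49), AARS1 (-1.30), CARS1 (-1.06) and SARS1 (-1.06) fell, and 8 members of the whole list did not pass. PHGDH, the first enzyme of serine synthesis, was the single member called higher, by 0.56 ± 0.13.

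ER chaperones and disposal factors had 19 of 24 members lower and 0 higher, with a median of -0.82. HSPA5, the main chaperone of the ER lumen, was 12.63, 13.10 and 13.02 on the sphere arrays and 11.92, 11.48 and 11.78 on the xenograft arrays (2.28-fold lower). Of the sensors of unfolded protein, ERN1 (IRE1) differed by -1.87 ± 0.14 and ATF6 by -1.29 ± 0.09. The remaining sensor, EIF2AK3 (PERK), fell by 0.53 with overlapping groups, and its call was lost without spheres replicate 2 or 3 or xenografts replicate 2 or 3 (adjusted p up to 0.110). CREB3L2, a related membrane-bound transcription factor, had the largest difference of the list (-1.90 ± 0.09). CALR, a lectin chaperone, and SDF2L1 did not pass, at 0.16 and 0.17.

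**Figure D4:**
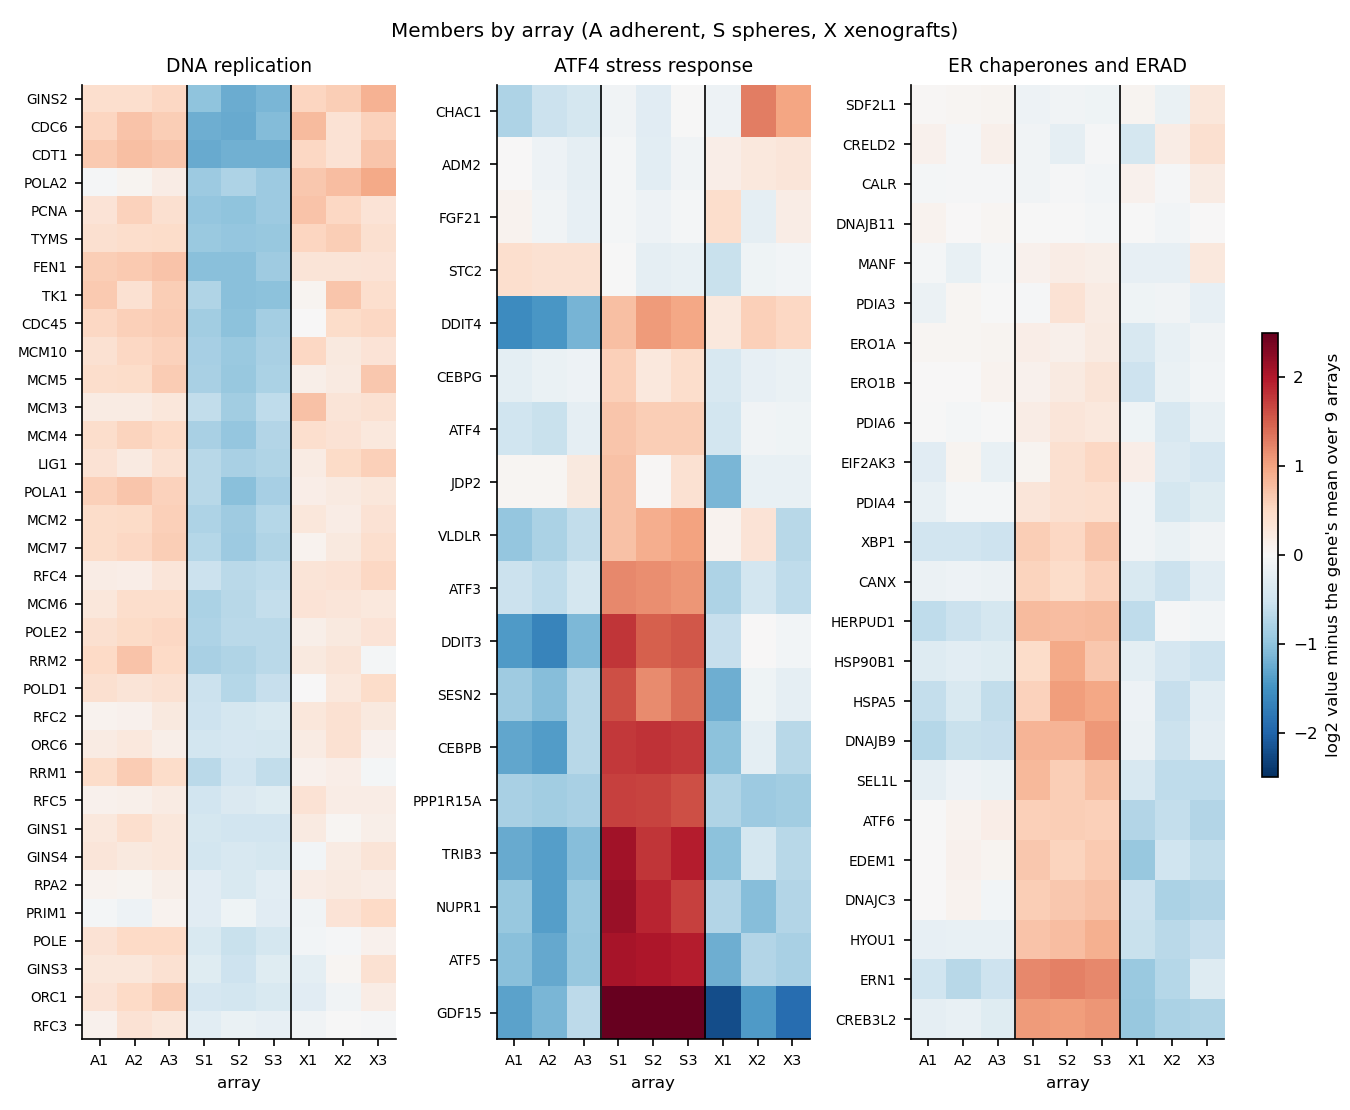
Log2 value minus the gene's mean over the 9 arrays (colour, with differences beyond 2.5 shown at the end colour) for the measured members of DNA replication, ATF4 stress response and ER chaperones, on adherent (A), sphere (S) and xenograft (X) arrays. The sphere arrays are the low ones for DNA replication and the high ones for most stress and chaperone genes, and CHAC1 is high on xenografts 2 and 3.

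Cytosolic heat shock proteins ran opposite to the ER chaperones. Of 18 measured, 10 were higher and 1 lower, with a median of 0.51. CRYAB, a small heat shock protein abundant in muscle, was 5.59, 5.40 and 5.57 on the sphere arrays and 7.48, 7.24 and 8.04 on the xenograft arrays (4.19-fold higher). DNAJB1, a co-chaperone induced by heat shock factor 1, rose by 1.77 ± 0.27, and HSPB1 by 1.05 ± 0.11. BAG3, a co-chaperone of selective autophagy, fell by 1.37 ± 0.26.

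Of the hypoxia response genes, targets of the hypoxia-inducible factors, more were lower than higher in xenografts. Of 24 members other than glycolytic enzymes, 15 fell and 4 rose, with a median of -0.60. The lower count was 5 of 14, with a median of -0.15, at probe sets without the _x_at and _s_at suffixes, and 7 of 24 by the methods' t-test after Benjamini-Hochberg adjustment, and the higher count was 2 without spheres replicate 1. LOX, which cross-links collagen, was 7.59, 8.29 and 8.23 on the sphere arrays and 4.55, 3.86 and 3.96 on the xenograft arrays (15.1-fold lower). VEGFA, the main growth factor for vessels, was 10.22, 10.66 and 10.63 on the sphere arrays and 9.18, 9.0 and 8.80 on the xenograft arrays (2.85-fold lower). NDRG1, ADM and the glucose transporter SLC2A3 changed by -2.33 ± 0.16, -2.18 ± 0.32 and -2.04 ± 0.28, while BNIP3, a mitophagy receptor, and CA12, a carbonic anhydrase, rose by 0.78 ± 0.12 and 0.68 ± 0.11 (for CA12, 0.33 and not called at probe sets without those suffixes). Relative to adherent cells, the medians of the list were 1.11 in spheres and 0.57 in xenografts.

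Among angiogenic factors and receptors, 6 of 23 were higher and 7 lower, a balance that turned to 8 higher and 6 lower under quantile normalization. NRP1, a coreceptor for VEGF, fell by 2.84 ± 0.11 and VEGFC, a lymphatic growth factor, decreased by 1.77 ± 0.24. PDGFA and VEGFB, ligands of other members of these receptor families, rose by 1.25 ± 0.15 and 0.96 ± 0.10.

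In glycolysis, 8 of 19 enzymes were higher and 2 lower. ALDOC, the brain-type aldolase, was 5.08, 5.61 and 5.47 on the sphere arrays and 7.66, 7.12 and 7.35 on the xenograft arrays (3.97-fold higher), TPI1 rose by 0.92 ± 0.09, and ENO2, the neuronal enolase, fell by 1.41 ± 0.22. LDHA, which makes lactate, did not pass at 0.19. Nuclear-encoded genes of oxidative phosphorylation rose in 16 of 33 cases and fell in 2, most by small amounts (median 0.20). NDUFS3 of complex I and ATP5MC1 of the ATP synthase rose most, by 1.13 ± 0.10 and 1.10 ± 0.10.

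Cholesterol synthesis genes, which SREBP2 turns on when sterols are short, were higher for 16 of 19 members and lower for 0, with a median of 0.62. ACAT2, which condenses acetyl-CoA at the entry to the pathway, was 7.91, 7.91 and 7.86 on the sphere arrays and 9.90, 9.92 and 9.92 on the xenograft arrays (4.06-fold higher). DHCR7, the last enzyme before cholesterol, rose by 1.44 ± 0.12, and INSIG1, the sterol-responsive anchor of SREBP, by 1.18 ± 0.17. IDI1, an isomerase of the isoprenoid steps, rose by 1.65 at its brightest probe set and at 1 other, and fell at another. The medians against adherent cells were -0.45 in spheres and 0.01 in xenografts. In fatty acid synthesis, ME1, the malic enzyme, rose by 1.82 ± 0.14 and FASN, fatty acid synthase, by 1.07 ± 0.10, whereas SREBF1, which encodes their regulator SREBP1, fell by 0.80 ± 0.15.

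Notch is a pathway between neighbouring cells, in which ligands on one cell lead to cleavage of the receptor on another and the released fragment acts with RBPJ on genes of the HES and HEY repressors. Of 25 receptors, ligands and effectors, 4 were higher and 9 lower. Receptors diverged. Beside the rise of NOTCH1 at its brighter probe set (8.08-fold), the dimmer one differed by 0.35. NOTCH2 fell by 0.63 ± 0.10, NOTCH3 did not pass at 0.16 (95% confidence interval -0.21 to 0.54), and NOTCH4 rose by 0.66 ± 0.12. LFNG, which modifies receptors with sugar and changes their choice of ligand, was 6.43, 6.64 and 6.58 on the sphere arrays and 8.04, 7.90 and 8.46 on the xenograft arrays (2.99-fold higher).

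The ligand JAG1 was measured by 6 probe sets, of which 1 was called, at 0.40, and its brightest read 8.34, 8.72 and 8.77 on the sphere arrays and 8.97, 8.13 and 8.29 on the xenograft arrays with overlapping groups (-0.14). Effectors and processing genes were mostly lower: NUMB, an antagonist of Notch, fell by 1.43 ± 0.18, MAML2, a coactivator, decreased by 1.28 ± 0.12, and the receptor proteases ADAM17 and ADAM10 changed by -1.05 ± 0.09 and -0.73 ± 0.10. RBPJ fell by 0.40 ± 0.09 at its brightest probe set. Its dimmest differed by -1.79, and the remaining one by -0.36.

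In the list of Notch target genes and relatives of the HES and HEY repressors, 5 of 12 were higher and 1 was lower. The largest rise counted here is that of HES6 (3.19), the relative of the HES repressors that promotes differentiation. Its rise is not taken here as a readout of the pathway. HES1, a repressor and common readout of the pathway, was 5.90, 6.27 and 6.11 on the sphere arrays and 7.06, 6.98 and 7.35 on the xenograft arrays (2.05-fold higher, log2 difference 1.04 ± 0.13 (SE, n = 3 per group), adjusted p = 9.49e-05). Its next probe set rose by the same amount (1.04), and its dimmest differed by 0.20. HEYL rose by 1.00 ± 0.12 and NRARP, a feedback inhibitor, by 0.71 ± 0.14. HEY1 was 8.26, 8.73 and 8.48 on the sphere arrays and 8.04, 7.12 and 8.01 on the xenograft arrays: the highest xenograft lay below the lowest sphere, and the difference of -0.77 ± 0.22 lost its call without spheres replicate 2 (adjusted p = 0.0650) and went to -0.47 without xenografts replicate 2, the lowest of the tumors. So the readouts HES1 and HEY1 differed in opposite directions between the same arrays. Adherent cells held HES1 at 5.43 ± 0.16 and HEY1 at 6.89 ± 0.14.

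**Figure D5:**
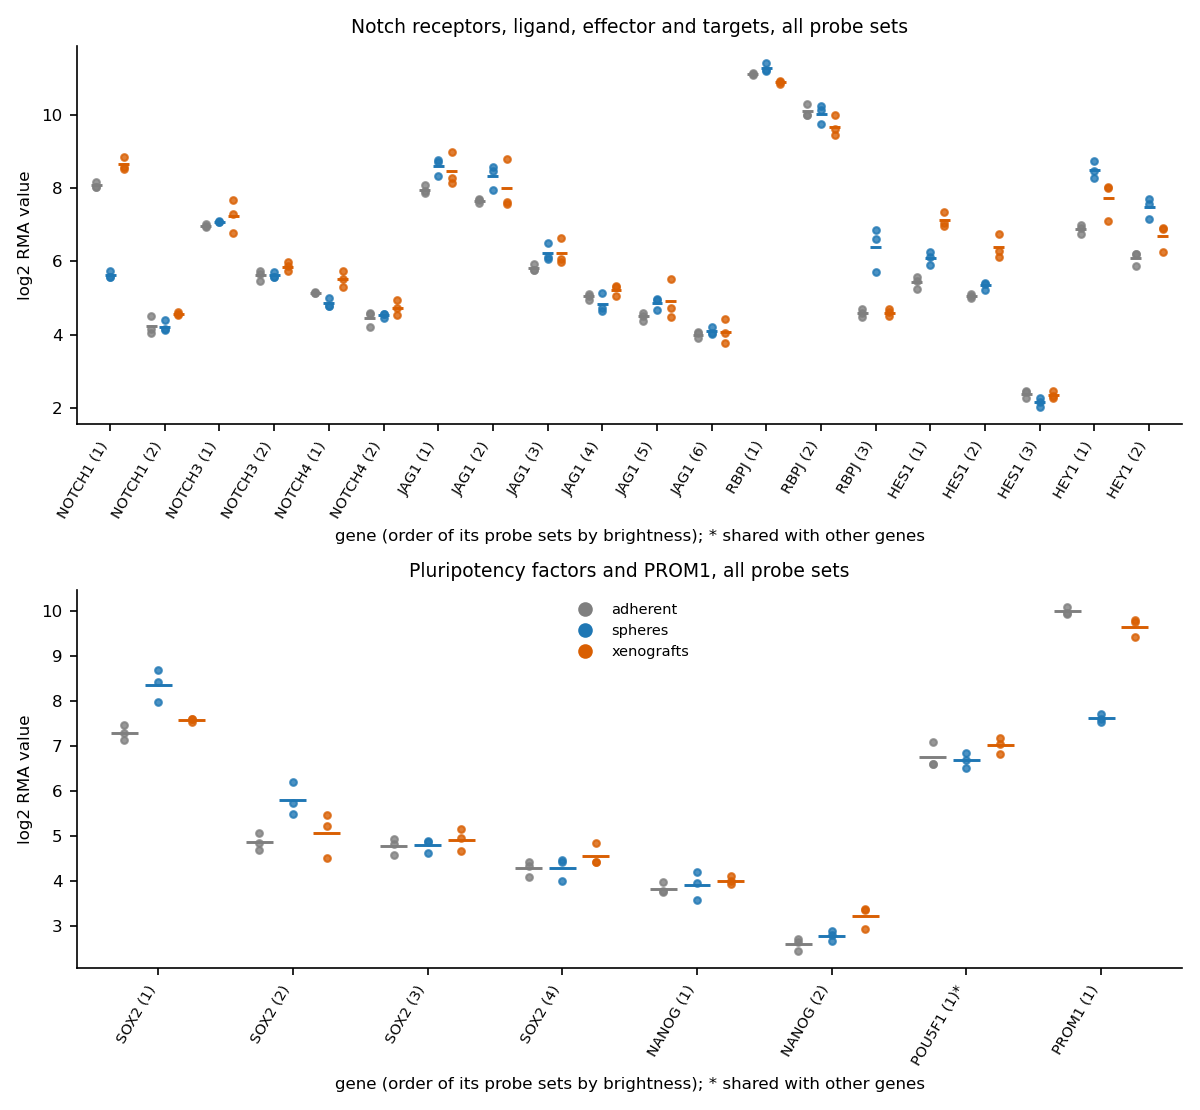
Log2 RMA values (y axis) on the 9 arrays for every probe set of 7 Notch genes (top) and of SOX2, NANOG, POU5F1 and PROM1 (bottom), numbered from the brightest, with 1 point per array and a line at each group's mean. NOTCH1, HES1 and PROM1 are higher in xenografts and SOX2, HEY1 and RBPJ lower at their brightest probe sets.

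SOX2, a transcription factor of stem and neural progenitor cells, was 7.96, 8.69 and 8.41 on the sphere arrays and 7.52, 7.60 and 7.59 on the xenograft arrays, and fell by 0.78 ± 0.16 (adjusted p = 0.00235), with the 3 xenografts close together below all spheres. Its second brightest probe set differed by -0.74, and the 2 dimmest did not pass at 0.13 and 0.27. NANOG, a pluripotency factor, differed by 0.10 at its brighter probe set, which did not pass, and by 0.44 at the dimmer, which did. POU5F1, the gene of OCT4, shares its probe set with relatives and pseudogenes, and that probe set differed by 0.33 (adjusted p = 0.102). In the list of 17 measured pluripotency factors, 4 rose and 5 fell, and the direction of this balance changed under other settings. The Krüppel-like factors KLF5 (-1.78 ± 0.13) and KLF4 (-1.41 ± 0.12) fell. MYC fell by 0.85 ± 0.10 and its relative MYCN rose by 0.69 ± 0.12.

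PROM1, a pentaspan membrane protein used as a stem cell marker (CD133), was 7.60, 7.53 and 7.72 on the sphere arrays and 9.40, 9.79 and 9.75 on the xenograft arrays (4.09-fold higher), close to 9.98 ± 0.09 in adherent cells. Other surface markers and aldehyde dehydrogenases were mixed: ALDH1A2, a retinal dehydrogenase, fell by 2.02 ± 0.09, and KIT, a receptor tyrosine kinase, rose by 1.38, which became 0.87 without xenografts replicate 1. Of the drug efflux transporters, ABCC5 rose by 1.79 ± 0.14 (0.28 and not called at probe sets without those suffixes) and ABCC1 fell by 0.59 ± 0.09, while ABCB1 and ABCG2 did not pass, at 0.30 and 0.16.

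Myogenic transcription factors, which set muscle identity, had 8 of 18 members higher and 4 lower. MYOG, myogenin, which drives terminal differentiation, was 9.09, 9.02 and 9.09 on the sphere arrays and 9.84, 10.04 and 10.06 on the xenograft arrays (1.89-fold higher). MYOD1 did not pass at -0.20 (95% confidence interval -0.43 to 0.03). ID1 and ID3, which block myogenic factors, rose by 1.22 ± 0.18 and 1.52 ± 0.16, and EYA2, a coactivator, by 1.64 ± 0.12. MEF2A and MEF2C, partners of myogenic factors, changed by -0.81 ± 0.12 and -0.66 ± 0.09, and PAX3 decreased by 0.47 ± 0.11.

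Sarcomere genes moved in both directions. Of 39 measured, 14 were higher and 10 lower, and the balance was 8 to 10 when dim probe sets were left out. Besides ACTA1, the fast myosin MYH4 was 2.43, 2.49 and 2.26 on the sphere arrays and 4.81, 4.37 and 4.92 on the xenograft arrays (4.94-fold higher), the calcium pump ATP2A1 rose by 1.12 ± 0.10, and the fast troponin TNNI2 by 0.95 ± 0.20. TPM1, a tropomyosin, rose by 1.34 at its brightest probe set and fell at 3 others. Of the slow-fibre troponins, TNNI1 was 9.45, 9.56 and 9.56 on the sphere arrays and 7.56, 8.07 and 7.97 on the xenograft arrays (3.14-fold lower), and TNNT1 fell by 1.43 ± 0.10. NEB, the giant thin filament protein nebulin, fell by 1.47 ± 0.12, and CKM, muscle creatine kinase, decreased by 0.76 ± 0.12.

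At the neuromuscular junction, DOK7, the cytoplasmic activator of the receptor kinase MUSK, was 6.79, 7.16 and 7.07 on the sphere arrays and 9.88, 9.66 and 9.80 on the xenograft arrays (6.83-fold higher), while MUSK itself was 5.88, 6.96 and 6.59 on the sphere arrays and 4.77, 5.19 and 5.41 on the xenograft arrays (2.56-fold lower). The acetylcholine receptor subunits CHRNB1 and CHRND rose by 0.86 ± 0.12 and 0.73 ± 0.10, and CHRNA1 did not pass at -0.18. PAX3-FOXO1 target genes were higher for 11 of 24 members and lower for 3, with a median of 0.41. The lower count was 1 without adherent replicate 1 or 2, spheres replicate 2 or 3 or xenografts replicate 2. It was also 1 with the replicate block, in the fit on the 6 arrays alone and by the methods' t-test after Benjamini-Hochberg adjustment. PIPOX, a peroxisomal oxidase and a diagnostic marker of FP-RMS, was 8.65, 8.55 and 8.49 on the sphere arrays and 11.39, 10.42 and 10.34 on the xenograft arrays (4.46-fold higher). TFAP2B, another such marker and a transcription factor, rose by 1.57 ± 0.15, the receptor kinase ALK by 1.13 ± 0.10 and the receptor kinase FGFR4 by 0.57 ± 0.11. MET, a receptor kinase of muscle precursors, fell by 0.44 ± 0.10.

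Targets of YAP and TAZ, which respond to matrix stiffness and cell shape, were lower for 10 of 23 members and higher for 3, with a median of -0.31. Besides AXL, MYOF, a membrane repair protein, was 6.85, 6.93 and 6.88 on the sphere arrays and 3.84, 2.60 and 3.28 on the xenograft arrays (12.6-fold lower, but 0.075 on the log2 scale at its brightest probe set without those suffixes), and CCN2, a matricellular protein, was 6.46, 7.92 and 7.41 on the sphere arrays and 4.11, 4.96 and 4.17 on the xenograft arrays (7.2-fold lower). AJUBA, a junctional adaptor, rose by 1.02 ± 0.12. The call of CCN1 (-0.78, overlapping groups) was lost without spheres replicate 2 or 3 or xenografts replicate 2 or 3.

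Cell-matrix adhesion genes leaned the same way, with 10 of 27 lower and 4 higher, the latter 2 without adherent replicate 1, spheres replicate 1 or 2 or xenografts replicate 2. CAV1, caveolin 1, was 8.40, 8.60 and 8.58 on the sphere arrays and 6.43, 6.26 and 5.87 on the xenograft arrays (5.06-fold lower). VCL, vinculin, fell by 1.61 ± 0.09 and ITGA5, the fibronectin receptor subunit, decreased by 1.36 ± 0.16. Cadherins ran the other way, with 6 of 12 higher and 1 lower: CDH6 was 5.16, 4.60 and 5.27 on the sphere arrays and 8.15, 7.46 and 7.75 on the xenograft arrays (6.85-fold higher), and CDH11 and CDH3 rose by 1.52 ± 0.16 and 1.06 ± 0.10.

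Structural matrix genes fell in 15 of 32 cases and rose in 7, with a median of -0.31. Basement membrane genes are among the falls, with COL4A1 at -1.13 ± 0.10 and LAMC1 at -1.12 ± 0.10. COL6A1 was 8.53, 8.57 and 8.59 on the sphere arrays and 6.16, 6.12 and 6.31 on the xenograft arrays (5.15-fold lower, but 0.26 on the log2 scale at its brightest probe set without the _x_at and _s_at suffixes), and TNC, tenascin C, fell by 1.82 ± 0.23. COL1A2, a fibrillar collagen of connective tissue, was 4.0, 4.28 and 4.22 on the sphere arrays and 6.54, 5.73 and 5.87 on the xenograft arrays (3.68-fold higher), whereas its partner COL1A1 did not pass at 0.21 at its brightest probe set and was lower by the mean of its probe sets (-0.68, adjusted p = 0.000118 from limma). Of the proteases and their inhibitors, MMP3, a stromelysin, rose by 1.61 ± 0.25 and the inhibitor TIMP3 fell by 1.41 ± 0.14, while FMOD, a collagen-binding proteoglycan, fell by 1.42 ± 0.09.

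Immediate early genes and feedback regulators of ERK, the kinase downstream of EGF and FGF, were lower for 12 of 25 members and higher for 1. EGR1, an immediate early transcription factor, was 8.88, 9.11 and 8.76 on the sphere arrays and 8.26, 6.79 and 7.03 on the xenograft arrays (-1.56 ± 0.29), with the xenografts widely spread. DUSP5, an ERK phosphatase, fell by 0.71 ± 0.13, DUSP6 decreased by 0.35 ± 0.09 and ETV5, an ERK-induced factor, decreased by 0.52 ± 0.11 (-0.30 and not called at probe sets without those suffixes). Receptor genes rose in part: ERBB3 by 0.86 ± 0.10, FGFR1 by 0.51 ± 0.11 and FGFR3 by 0.58 ± 0.12, whereas TGFA, a ligand of EGFR, fell by 2.58 ± 0.12.

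On the insulin and IGF axis, IGFBP5 rose by 1.63 ± 0.09 and IGFBP6 fell by 2.09 ± 0.11, both secreted binding proteins of the IGF ligands. IRS1 and IRS2, the docking proteins of the insulin and IGF receptors, changed by -0.64 ± 0.12 and -0.48 ± 0.11, and the receptor gene IGF1R did not pass at -0.41. Of the WNT genes, 12 of 31 fell and 8 rose, the latter 5 without spheres replicate 3. The antagonist DKK3 fell by 2.00 ± 0.11, the receptor FZD5 decreased by 1.71 ± 0.16 and the transcription factor LEF1 decreased by 1.11 ± 0.09, and the coreceptor LRP5 and the ligand WNT10B rose by 0.99 ± 0.12 and 1.00 ± 0.14.

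In the TGF-beta and BMP pathway, where LEFTY1 had the largest rise, INHBE, an activin subunit that stress also induces, fell by 2.03 ± 0.39, the receptor TGFBR2 decreased by 0.94 ± 0.11 and the receptor BMPR1B decreased by 1.07 ± 0.20. SMAD6, an inhibitor that BMP induces, rose by 0.71 ± 0.13. At probe sets without the _x_at and _s_at suffixes, FZD5 (-0.32) and SMAD6 (0.053) were not called. Of the 13 Hedgehog genes, HHIP, a decoy receptor, fell by 1.66 ± 0.10 and the coreceptor CDON decreased by 0.56 ± 0.11, while the readout GLI1 did not pass at 0.08. Of 16 retinoic acid genes, 4 were higher and 3 lower, shares near the 25.7% and 18.3% of all genes. The counts thus did not set this list apart from genes in general. STRA6, the retinol transporter, rose by 1.4 ± 0.12, and ALDH1A2, which makes retinoic acid, fell by 2.02 ± 0.09.

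Glucocorticoid-linked genes moved both ways, and their list changed its balance under other settings. SGK1, a kinase induced by several hormones, rose by 1.2 ± 0.27, and the receptor gene NR3C1 fell by 0.53 ± 0.09. Metallothioneins and zinc transporters were lower for 9 of 20 members and higher for 3. The higher count was 0 without spheres replicate 2 or 3, and 1 without adherent replicate 2 or 3, without xenografts replicate 2 or 3 or with the replicate block. At probe sets without the _x_at and _s_at suffixes, 3 of 13 were lower. MT2A, a metal-binding protein induced by zinc and glucocorticoids, fell by 0.72 ± 0.12, and the zinc transporters SLC30A7 and SLC30A4 changed by -1.11 ± 0.11 and -0.96 ± 0.10. Metallothionein genes are close copies of each other, and their probe sets may share signal. FTL, the light chain of the iron store ferritin, fell by 0.72 ± 0.08.

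Targets of NRF2, the regulator of antioxidant genes, were split, 6 higher and 7 lower of 21, with the balance turned under quantile normalization (8 higher and 5 lower). NQO1, a quinone reductase, fell by 1.38 ± 0.10, and AKR1B10, an aldo-keto reductase, and PRDX1, a peroxiredoxin, rose by 1.51 ± 0.09 and 0.96 ± 0.08. Autophagy and lysosome genes fell in 13 of 30 cases and rose in 8, the latter 5 without spheres replicate 3. WIPI1, which acts at the forming autophagosome, was 8.96, 8.92 and 9.03 on the sphere arrays and 6.48, 6.99 and 6.63 on the xenograft arrays (4.81-fold lower), and GABARAPL1 and MAP1LC3B, which coat its membrane, changed by -1.87 ± 0.14 and -1.27 ± 0.08. CTSD, a lysosomal protease, rose by 0.90 ± 0.09.

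Interferon-stimulated and antigen presentation genes were lower for 11 of 27 members and higher for 3. The members with the largest falls act in loading of peptides on MHC class I: TAPBP (-1.39 ± 0.12), TAP2 (-1.30 ± 0.12) and HLA-E, a class I molecule (-1.04 ± 0.11). OAS1 and IFI27, induced by interferon, did not pass, at 0.29 and 0.23. Neuronal genes were higher for 12 of 23 members (7 without spheres replicate 2) and lower for 5 (3 without spheres replicate 1 or 3 or xenografts replicate 2). With dim probe sets left out, 4 of 9 were higher and 4 lower. The methods' t-test after Benjamini-Hochberg adjustment gave 4 higher and 3 lower of 23. MAP2, a microtubule protein of dendrites, rose by 0.97 ± 0.09, and SYT1, the calcium sensor of synaptic vesicles, and L1CAM, an adhesion molecule, changed by -3.04 ± 0.26 and -2.91 ± 0.11.

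In the BCL2 family, BID and BMF, which promote death, rose beside BAX by 0.92 ± 0.09 and 0.67 ± 0.12, PMAIP1 (NOXA) fell by 0.82 ± 0.14, and 10 of 17 members, the survival genes BCL2 and MCL1 among them, did not pass. Cytosolic ribosomal protein genes changed little. Of 26 measured, 2 were higher and 0 lower, and their median was 0.03. RPS27L, a p53-responsive relative of RPS27, rose by 0.66 ± 0.09.

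Markers of host cell types were read as a check on the xenografts. The probes are human, so mouse RNA is seen only where a probe matches it by chance, and RNA of the host can be larger than these values show. Summed levels are sums of the members' values on the linear scale. Fibroblast markers were higher for 5 of 12 and lower for 1, with summed levels of 2290 to 2720 in spheres and 2310 to 3540 in xenografts. LUM, COL1A2 and DCN are the markers with the largest rises (3.01, 1.88 and 0.81), and PDGFRA did not pass at 0.44. The lowest difference of the list was -0.55. Their part in the rises of the matrix genes was not tested.

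Endothelial markers were higher for 3 of 12, near the 25.7% of all genes, with summed levels of 237 to 264 and 263 to 309. Of the 12, 9 were below median brightness, and the list's median difference was 0.17. All genes of the 2 dimmest of the 5 brightness groups had medians of 0.16 and 0.22. The count and median thus did not set this list apart from dim genes in general. PECAM1 rose by 0.47 ± 0.12, while the defining markers CDH5 and VWF did not pass. Macrophage and leukocyte markers were higher for 4 of 12 and lower for 1, with summed levels of 592 to 637 and 288 to 377. Here too 9 of the 12 were below median brightness, and with dim probe sets left out 1 of 3 was higher and 1 lower. C1QA and C1QB, complement genes of macrophages, rose by 0.91 ± 0.13 and 0.60 ± 0.14. LAPTM5, which was at 10.06 ± 0.04 in adherent cells, where no leukocytes are present, fell by 2.21 ± 0.31, and CSF1R and PTPRC, which define macrophages and leukocytes, did not pass. Blood markers summed to 177 to 189 and 207 to 225, with HBB at 0.32 ± 0.10, and its call was lost without spheres replicate 2. The summed levels of adipocyte markers, none of whose 10 members was called, were 230 to 243 and 258 to 267, and those of Schwann cell markers 738 to 804 and 457 to 474. Of the 5 Schwann cell markers, CDH19, the brightest, fell by 1.16 ± 0.09, MBP rose by 0.33, a call lost without spheres replicate 3 or xenografts replicate 2, and the others did not pass.

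Adult skeletal muscle markers were higher for 9 of 15 and lower for 1, with summed levels of 1080 to 1140 in spheres and 1190 to 1560 in xenografts. Of the 15, 8 were below median brightness. With dim probe sets left out, 3 of 7 were higher and 1 lower. By the methods' t-test after Benjamini-Hochberg adjustment, 4 of 15 were higher and 1 lower. PVALB, the calcium buffer of fast fibres, rose by 0.87 ± 0.13 and MYH7, the slow myosin, by 0.81 ± 0.18. PYGM, the muscle phosphorylase gene, did not pass at 0.29, and CKM fell as given above. ACTA1 and MYH4 are also genes of this host tissue, and its part in their rise was not tested. The markers of FP-RMS itself summed to 7850 to 8010 in spheres and 11600 to 14000 in xenografts, with 7 of 12 called higher and 0 lower.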

How the data were processed

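RNA of 9 cultures and tumors of Rh30 cells was measured on Affymetrix U133 Plus 2.0 arrays. Per the labels and methods, the authors used RMA for background correction, normalization and summary, and deposited 1 log2 value per probe set, with array medians of 4.78 to 4.87. Which RMA software was used is not given in the sources used here. RMA brings the arrays toward 1 distribution, so a change shared by most genes would be reduced. Values not above background were not marked, and the number of arrays limits the precision.

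After 62 control probe sets were set aside, a linear model with a mean for each group was fitted to 54613 on 9 arrays (limma 3.58.1, R 4.3.3, empirical Bayes variances, 6 residual degrees of freedom). P-values of xenografts against spheres took a Benjamini-Hochberg adjustment across all 54613. The study's methods name no test for the arrays and the unpaired t-test among those used in general, and it was run as an alternative (the methods' t-test). Symbols came from the array's annotation, and 41037 of the 41091 probe sets with 1 symbol were matched to RefSeq by gene ID. Another 1801 had several symbols and 11721 had none. A gene was its brightest probe set with 1 symbol (19775 genes). List members without such a probe set were not analysed here. Intervals are at 95%, and control probe sets were compared by exact permutation tests in scipy 1.17.1. In simulated data for xenografts against spheres, over 54613 probe sets, 21.4% of changes of 0.5 log2, 80% of 1 log2 and 100% of 2 log2 were recovered, with 7 false calls of 138. Few of the simulated probe sets were changed, whereas 44.0% of genes were called here. The p cut-off of the adjustment depends on that share, so these rates do not give the recovery in this comparison.

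The 54 gene lists and the rule for named genes were chosen with earlier results of these data known. The rule names the 12 largest rises and 12 largest falls among called genes whose arrays do not overlap, up to 4 called members of a list per direction, the Notch and stem cell genes of the study, and markers of other cell types. Members that did not pass were picked for their role, after their values were seen. Alternatives changed the scaling, the filter on dim probe sets, the arrays in the fit, the variance model, the replicate block, the test, the threshold and the choice of probe set.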

Additional observations from a re-analysis of the deposited data

How the results depend on the processing

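The counts of genes called higher (5077) and lower (3628) stayed within 1.5 times of these values under every alternative but those given next. The methods' t-test after Benjamini-Hochberg adjustment gave 2380 higher and 2263 lower, with 362 called list members in place of 574. Adding a 2-fold threshold gave 534, 964 and 187. Leaving out 1 array gave 3517 to 5188 higher and 3048 to 3719 lower, the lowest without spheres replicate 3. Equal replicate numbers did not pair the arrays (correlations of deviations of -0.14, 0.07 and -0.11), and the fit with the replicate block gave 4737 higher and 3518 lower. Quantile normalization raised the higher share of called genes from 58.3% to 62.5%.

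Of 258 genes named with values, 254 kept direction and call under quantile normalization and 257 after median centring of the arrays. Restricting to probe sets without the _x_at and _s_at suffixes turned the sign of ASNS (0.23), COL6A1 (0.26), MYOF (0.0752), DES (0.12), IDI1 (-0.59) and TPM1 (-0.21), and ended the calls of ABCC5 (0.28), CA12 (0.33), DRC9 (0.14), ETV5 (-0.30), FZD5 (-0.32), GINS2 (0.23), HES1 (0.20), LUM (0.14) and SMAD6 (0.0528). The mean of all probe sets turned COL1A1 (-0.68) and TPM1 (-0.12), and ended the calls of SOX2 (-0.28) and EIF2AK3 (-0.16). In the fit on the 6 arrays alone, CCN1, CHAC1, EIF2AK3, GINS3, MBP, MKI67 and ORC1 did not pass, nor did CCN1 and EIF2AK3 under quantile normalization or MKI67 after median centring. The cause was not tested. With 1 array left out, 3 genes that were not called turned sign: JAG1 ranged from -0.40 to 0.0221, NANOG from -0.0665 to 0.25 and NOTCH3 from -0.0448 to 0.40.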
